A study of Mus musculus with 19 samples.

Results

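The genes of the proton pump and of acid-base transport were followed in RNA from whole kidneys of 3-week-old mice (postnatal day 21). The set holds 38 genes of the 54146 listed in each library: 22 genes of the vacuolar proton pump (V-ATPase) and its accessory proteins, and 16 transporters, carbonic anhydrases and a transcription factor. The genes were chosen by name for their role, with earlier results of these data known. Their values came from matching Ensembl identifiers to mouse symbols, and all 38 were found. The control group held 3 libraries from mice of genotype Dnmt3ab f/f, with floxed Dnmt3a and Dnmt3b, which encode the de novo DNA methyltransferases. The KspCre DKO group held 2 libraries from mice of genotype KspCre Dnmt3ab f/f, in which Cre is expressed from the promoter of Ksp-cadherin (Cdh16), which is active in tubule epithelium. All mice were of strain B6C3F1/J, and both groups carry the floxed genes. Nothing in the labels states that each library is a different animal; the spread behind the p-values is that between these libraries and may be technical. The series also has 14 bisulfite libraries among its 19 samples, not analysed here.

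The V-ATPase is a rotary pump that uses ATP to push protons across a membrane. Its cytosolic V1 part splits ATP and its membrane V0 part carries the protons. Every cell uses it to acidify lysosomes and endosomes, and these housekeeping pumps hold ubiquitous isoforms of the B, C, G, a and d subunits. Intercalated cells of the connecting tubule and collecting duct place large numbers of pumps in the plasma membrane, with isoforms of their own for these subunits, under the transcription factor Foxi1. Type A intercalated cells secrete acid into the urine, and type B cells secrete bicarbonate.

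The values are TPM, transcript abundances scaled per length and to a fixed sum in each library, so that levels of different genes can be compared and sequencing depth is not known. In KspCre DKO replicate 2, 14710 genes were above 0, against 18488 to 20510 in the other libraries, and 31.0% of its TPM came from mitochondrially encoded genes, against 18.2% to 23.2%. Kidney markers were present in all 5 libraries, with Lrp2 of the proximal tubule at 44.8 to 73.2 TPM and Umod of the thick ascending limb at 193 to 802 TPM. Dnmt3a and Dnmt3b do not check the labels: Dnmt3a was at 13.2, 19.0 and 15.5 TPM (control) against 9.98 and 14.2 TPM (labelled KspCre DKO) and Dnmt3b at 1.82, 2.86 and 1.98 TPM against 2.29 and 3.25 TPM, and every direction below rests on the labels. Fold changes are differences of log2(TPM + 1), KspCre DKO minus control, from limma on 13963 genes averaging 1 TPM or more.

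Of the 38 genes 37 were tested, and none was called (limma, adjusted p below 0.05 over all tested genes), where 0.165% of all tested genes were called, 0.0645% as lower. At an unadjusted p below 0.05 there were 5 genes, all lower in KspCre DKO, namely Car15, Slc26a4, Slc9a3, Atp6v0d2 and Atp6v1h; 10.3% of all tested genes reached that p, and 6.15% did so with lower values. The fitted fold change was below 0 for 29 of the 37 genes (78.4%), against 61.7% of all tested genes, and the median log2 fold change was −0.34 against −0.14. Both KspCre DKO libraries lay below all controls for 13 genes (35.1%), against 15.6% of all tested genes, and above all controls for 1 gene, against 10.5%. Atp12a, among the 13, passed the filter only through control libraries, and Slc4a7, the 1 above, only through KspCre DKO libraries. KspCre DKO replicate 1 alone lay below the lowest control for 16 of 37 genes (43.2%), against 19.9% of all tested genes. KspCre DKO replicate 2 alone did so for 28 of 37 (75.7%), against 57.7%, and above the highest control for 3 of 37 (8.11%), against 16.7%. The groups of 3 and 2 libraries allow 10 splits, so that an exact permutation test of a single gene cannot go below p = 0.1.

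The isoforms of the intercalated cell and their ubiquitous counterparts did not have the same fitted values. All 5 intercalated-cell isoforms were lower in KspCre DKO, with a median log2 fold change of −0.57 and a range of −1.01 to −0.42. The 6 ubiquitous isoforms of the same subunits lay around 0, with a median of 0.024 and a range of −0.14 to 0.095. In bulk tissue, fewer intercalated cells and less RNA per cell cannot be told apart. None of the 11 isoforms was called, and the difference between the classes was not tested, because the genes of a class are not replicates of a condition. In single libraries, the median log2 difference of the 5 intercalated-cell isoforms from the control mean was −0.46 in KspCre DKO replicate 1 and −0.67 in replicate 2, and −0.21, 0.33 and 0.12 in the controls. For the ubiquitous isoforms it was 0.25 and −0.24 in KspCre DKO, the same signs as the 0.13 and −0.39 of all tested genes.

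Atp6v1b1 (ENSMUSG00000006269.7, chromosome 6, 83743017 to 83758855) encodes the B1 subunit, part of the ATP-splitting ring in intercalated cells, and is a gene of human distal renal tubular acidosis. It had 108, 166 and 107 TPM in control libraries against 109.6 and 78.0 TPM in KspCre DKO libraries. KspCre DKO replicate 1 lay among the controls and replicate 2 below them. On the log2 scale the difference was −0.42 with SE 0.31 (adjusted p = 0.667, limma), with a 95% interval of −1.12 to 0.27, and it was −0.18 without KspCre DKO replicate 2 and −0.22 without control replicate 2. Its ubiquitous counterpart Atp6v1b2 (chromosome 8, 69088736 to 69113718) had 51.9, 41.4 and 46.9 TPM in control libraries against 73.2 and 24.2 TPM in KspCre DKO libraries, 1 library above and 1 below all controls. Atp6v1b1 was therefore the more abundant B isoform in each library, at 67.6%, 80.0% and 69.5% of the summed B TPM in control libraries and 59.9% and 76.4% in KspCre DKO.

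Atp6v0a4 (ENSMUSG00000038600.12, chromosome 6, 38048483 to 38124586) encodes the a4 subunit of the proton channel, which is also mutated in distal renal tubular acidosis. Its control libraries had 50.9, 69.2 and 47.0 TPM against 65.0 and 20.6 TPM in KspCre DKO. The low value belongs to KspCre DKO replicate 2, and replicate 1 lay inside the control range. This is a log2 fold change of −0.57 with SE 0.46 (adjusted p = 0.7, limma), and without KspCre DKO replicate 2 it turned to 0.24. The ubiquitous Atp6v0a1 and Atp6v0a2 stood at 25.5 ± 3.14 and 14.4 ± 0.86 TPM (SD, n = 3) in the controls and at 27.6 ± 7.01 and 15.3 ± 0.47 TPM (SD, n = 2) in KspCre DKO. Of the TPM of these 3 a isoforms, Atp6v0a4 held 57.1%, 61.9% and 54.7% in the controls and 57.7% and 35.0% in KspCre DKO. A further a isoform, Tcirg1, the a3 subunit known from osteoclasts, lies outside these sums and stood at 42.1, 42.7 and 55.1 TPM in control libraries and 41.1 and 49.1 TPM in KspCre DKO.

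Atp6v0d2 (ENSMUSG00000028238.6, chromosome 4, 19876838 to 19922566) encodes the d2 subunit, which couples the V0 ring to the central stalk. It had the lowest fold change of the 22 pump genes. The control libraries had 23.0, 28.3 and 29.2 TPM against 19.1 and 8.42 TPM in KspCre DKO. Both KspCre DKO libraries lay below all controls. The log2 fold change was −1.01 with SE 0.37 (adjusted p = 0.398, limma), −0.46 without KspCre DKO replicate 2, and −1.56 without replicate 1, where it was called (limma adjusted p = 0.0467, 3.34% of all genes called lower). The counterpart Atp6v0d1 averaged 70.3 ± 6.65 TPM (SD, n = 3) against 72.6 ± 8.22 TPM (SD, n = 2). The share of Atp6v0d2 in the summed d isoforms was 23.1%, 28.5% and 31.6% in the controls and 19.6% and 11.2% in KspCre DKO, and this was the 1 of the 5 shares whose groups did not overlap. Atp6v0d2 is also known from macrophages and osteoclasts. Of 9 tested markers of these cells, 8 had a fold change below 0, with none called. Acp5 went the other way, with a log2 fold change of 0.895. It had 28.6, 12 and 6.46 TPM in control libraries against 32.1 and 20.2 TPM in KspCre DKO. The summed level of the markers was 110.1 to 180 TPM in control libraries and 92.5 to 101 TPM in KspCre DKO. Of these markers Csf1r had 14.5 to 34.9 TPM, C1qb 9.76 to 27.1 TPM and Tyrobp 8.02 to 22.9 TPM over the 5 libraries, and Adgre1 0 to 0.71 TPM. The part of these cells in the Atp6v0d2 values was not tested.

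Atp6v1g3 (ENSMUSG00000026394.5, chromosome 1, 138273738 to 138289462) encodes the G3 subunit of the peripheral stalk, an isoform found mainly in kidney. It had 65.6, 74.8 and 99.1 TPM in control libraries against 48.4 and 55.1 TPM in KspCre DKO libraries, without overlap. On the log2 scale the difference was −0.60 with SE 0.28 (adjusted p = 0.519, limma), with a 95% interval of −1.24 to 0.047. The ubiquitous Atp6v1g1 averaged 157 ± 9.04 TPM (SD, n = 3) against 161 ± 53.5 TPM (SD, n = 2). Atp6v1g3 held 28.5%, 33.8% and 38.4% of the summed G TPM in control libraries and 19.6% and 30.8% in KspCre DKO, so that the shares overlapped where the levels did not.

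Atp6v1c2 (ENSMUSG00000020566.19, chromosome 12, 17284721 to 17325386) encodes C2, a subunit that links V1 to V0 and is lost when the pump comes apart. The control libraries had 40.0, 69.7 and 59.8 TPM against 36.7 and 40.9 TPM in KspCre DKO, so that the lowest control lay between both KspCre DKO libraries. This is a log2 fold change of −0.50 with SE 0.31 (adjusted p = 0.621, limma). The counterpart Atp6v1c1 averaged 35.0 ± 6.42 TPM (SD, n = 3) against 33.1 ± 7.80 TPM (SD, n = 2). The C2 share was 49.9%, 71.5% and 61.7% in the controls and 48.7% and 59.8% in KspCre DKO. In each of the 5 subunits the mean share of the intercalated-cell isoform was lower in KspCre DKO than in the controls, with differences of −4.23 percentage points for B, −6.79 for C, −8.35 for G, −11.6 for a and −12.3 for d. For B the difference turned to 3.98 points higher without KspCre DKO replicate 1, and for a it was −0.17 points without replicate 2. For C it was −1.28 points without KspCre DKO replicate 1 and −1.57 points without control replicate 2, and for d it was −8.1 points without KspCre DKO replicate 2.

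**Figure D1:**
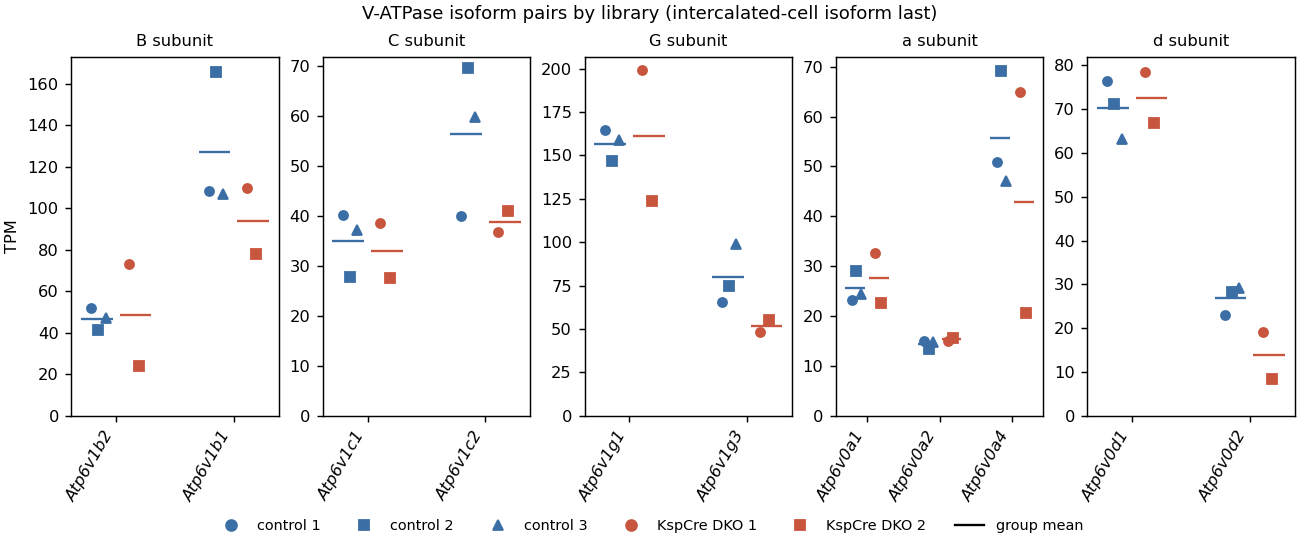
Level in TPM on the vertical axis (each panel from 0, scales differ) of the isoforms of 5 V-ATPase subunits, with a point for each library and a bar for each group mean. The groups are apart for Atp6v1g3 and Atp6v0d2, 2 of the 5 intercalated-cell isoforms, and for 0 of the 6 ubiquitous isoforms. Both KspCre DKO libraries lay below all controls for 15.6% of all tested genes. KspCre DKO replicate 2 is the lowest point for Atp6v1b1, Atp6v1b2, Atp6v1c1, Atp6v1g1, Atp6v0a1, Atp6v0a4 and Atp6v0d2.

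**Figure D2:**
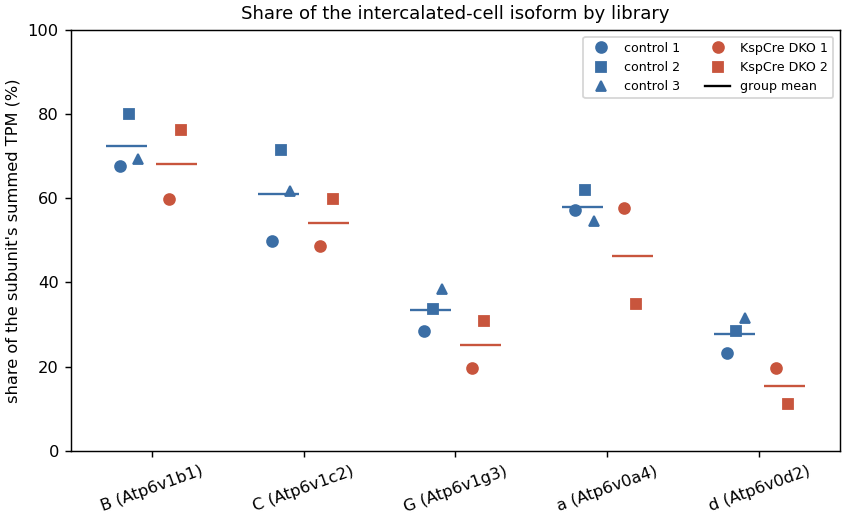
Share in percent of the intercalated-cell isoform in the summed TPM of its subunit, for each of the 5 libraries, with bars for group means. The groups overlap for B, C, G and a, while for d both KspCre DKO libraries (19.6% and 11.2%) lie below the controls (23.1% to 31.6%).

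The 250 bases before the start of transcription were compared as sequence, since DNA methyltransferases act on the dinucleotide CG. RefSeq windows (GRCm38.p6) were found for 26 of the 38 genes, 4 of them intercalated-cell isoforms. Some windows, among them those of Atp6v0a1, Atp6v1c2 and Slc9a3, lie inside the listed span of the gene. These windows precede an internal start and not the outermost start of the gene. The windows with the fewest CG among the pump genes are shown, with the ubiquitous Atp6v0d1 for contrast, each read 5′ to 3′ on the strand of the gene, with every CG in capitals.
Atp6v1b1 (chr6:83742767-83743016, plus strand): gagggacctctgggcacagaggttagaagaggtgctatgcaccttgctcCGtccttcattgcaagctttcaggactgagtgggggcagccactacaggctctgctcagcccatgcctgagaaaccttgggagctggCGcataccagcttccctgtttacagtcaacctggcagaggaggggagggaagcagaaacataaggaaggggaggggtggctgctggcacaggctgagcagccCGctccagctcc
Atp6v0a4 (chr6:38124587-38124836, minus strand): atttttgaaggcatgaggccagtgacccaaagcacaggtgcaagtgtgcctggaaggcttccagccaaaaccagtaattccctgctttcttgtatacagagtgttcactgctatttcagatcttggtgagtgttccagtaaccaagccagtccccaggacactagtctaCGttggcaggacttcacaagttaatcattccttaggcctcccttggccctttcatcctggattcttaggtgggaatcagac
Atp6v1g3 (chr1:138273488-138273737, plus strand): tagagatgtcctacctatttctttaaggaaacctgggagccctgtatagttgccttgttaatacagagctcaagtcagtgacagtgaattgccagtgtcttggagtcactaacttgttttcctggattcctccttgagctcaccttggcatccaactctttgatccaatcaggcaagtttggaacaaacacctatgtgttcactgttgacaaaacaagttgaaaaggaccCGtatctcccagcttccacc
Atp6v0d1 (chr8:105566065-105566314, minus strand): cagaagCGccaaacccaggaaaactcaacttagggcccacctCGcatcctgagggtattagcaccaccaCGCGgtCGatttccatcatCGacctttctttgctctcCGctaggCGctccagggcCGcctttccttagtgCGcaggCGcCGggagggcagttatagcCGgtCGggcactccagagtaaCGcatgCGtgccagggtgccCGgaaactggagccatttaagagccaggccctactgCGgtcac

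Atp6v1b1 held 3 CG in this window, and Atp6v0a4 and Atp6v1g3 held 1 each. Atp6v1c2 differed from them with 15. The windows of the pump genes without such isoforms, accessory proteins included, held 8 to 25 CG (12 windows of 10 genes), those of Atp6v0d1 and Atp6v0a1 held 18 and 4, and the median of all 32851 windows in the table was 6. The windows of the acid-base genes held 2 to 44 CG (12 windows of 10 genes, median 8.5), with 4 each for Foxi1, Slc26a4 and Car15 and 19 for Slc9a3. The forkhead motif, searched on both strands as TGTTTAC, as TATTTAC and as TGTTTGC, occurs in 9.73% of all windows of this length. Among the members, 2 windows held it: that of Slc9a3 as TGTTTGC and that of Atp6v1b1 as TGTTTAC, in ccagcttcccTGTTTACagtcaacctg (chr6:83742909-83742935, motif in capitals), 92 to 98 bases before the start. TGTTTAC by itself occurs in 3.17% of windows. A match describes letters and does not show binding.

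The remaining 11 pump genes have no intercalated-cell counterpart in the set. Of these, 10 had a fold change below 0 and 1 above, with a median of −0.34; the signs of Atp6v1f and Atp6v0b turned with quantile normalization. Both KspCre DKO libraries lay below all controls for 4 of the 11, Atp6v1d, Atp6v1e1, Atp6v1f and Atp6v1h, where 15.6% of all tested genes did so. For Atp6v1e1 the gap was small, with 172 TPM in KspCre DKO replicate 1 against 174 TPM in control replicate 3. Its log2 fold change was −0.072 without KspCre DKO replicate 2. In the controls Atp6v0c, the proteolipid that forms the proton-carrying ring, was the most abundant at 578 ± 48.3 TPM (SD, n = 3), followed by Atp6v1f of the central stalk at 449 ± 34.3 TPM and Atp6v0b, a second ring subunit, at 363 ± 43.1 TPM. The values of Atp6v0c in the 3 controls lay above those of Atp6v1f, and those of Atp6v1f above those of Atp6v0b. The catalytic subunit gene Atp6v1a stood far below them at 43.8 ± 7.81 TPM, which the B isoforms together exceeded.

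Atp6v1h, the regulatory H subunit, had the lowest fold change of this class. It had 57.5, 60.9 and 65.7 TPM in control libraries against 45.3 and 24.4 TPM in KspCre DKO libraries, without overlap. The log2 fold change was −0.86 with SE 0.32 (adjusted p = 0.402, limma), −0.43 without KspCre DKO replicate 2, and −1.29 without replicate 1, where it was called (limma adjusted p = 0.0487). Atp6v1d, Atp6v1e1 and Atp6v1f, subunits of the stalks, had log2 fold changes of −0.34, −0.34 and −0.31. Atp6v1f had 409, 466 and 471 TPM in control libraries against 366 and 355 TPM in KspCre DKO libraries, a small difference with little spread in either group. Atp6v0c had 572, 533 and 629 TPM in control libraries and 562 and 334 TPM in KspCre DKO. A transcribed pseudogene copy, Atp6v0c-ps2, was listed at 49.1 to 169 TPM, so the division of reads between the copies is uncertain; summed over the gene and its 2 copies the level was 700 ± 85.9 TPM (SD, n = 3) against 519 ± 193 TPM (SD, n = 2).

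Atp6v0e2, the second form of the small membrane subunit e, was the 1 gene of the class with a higher fitted value, at 24.3, 13.6 and 19.1 TPM in control libraries and 29.4 and 23.4 TPM in KspCre DKO, with overlap. Its widespread relative Atp6v0e stood at 183, 163 and 189.7 TPM against 177 and 106 TPM. The accessory proteins Atp6ap1 and Atp6ap2 (the prorenin receptor) depended on the library: both were above all controls in KspCre DKO replicate 1, at 136 and 34.9 TPM, and below all controls in replicate 2, at 66.6 and 10.4 TPM. Without replicate 2 their log2 fold changes turned from −0.34 to 0.17 and from −0.29 to 0.53.

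**Figure D3:**
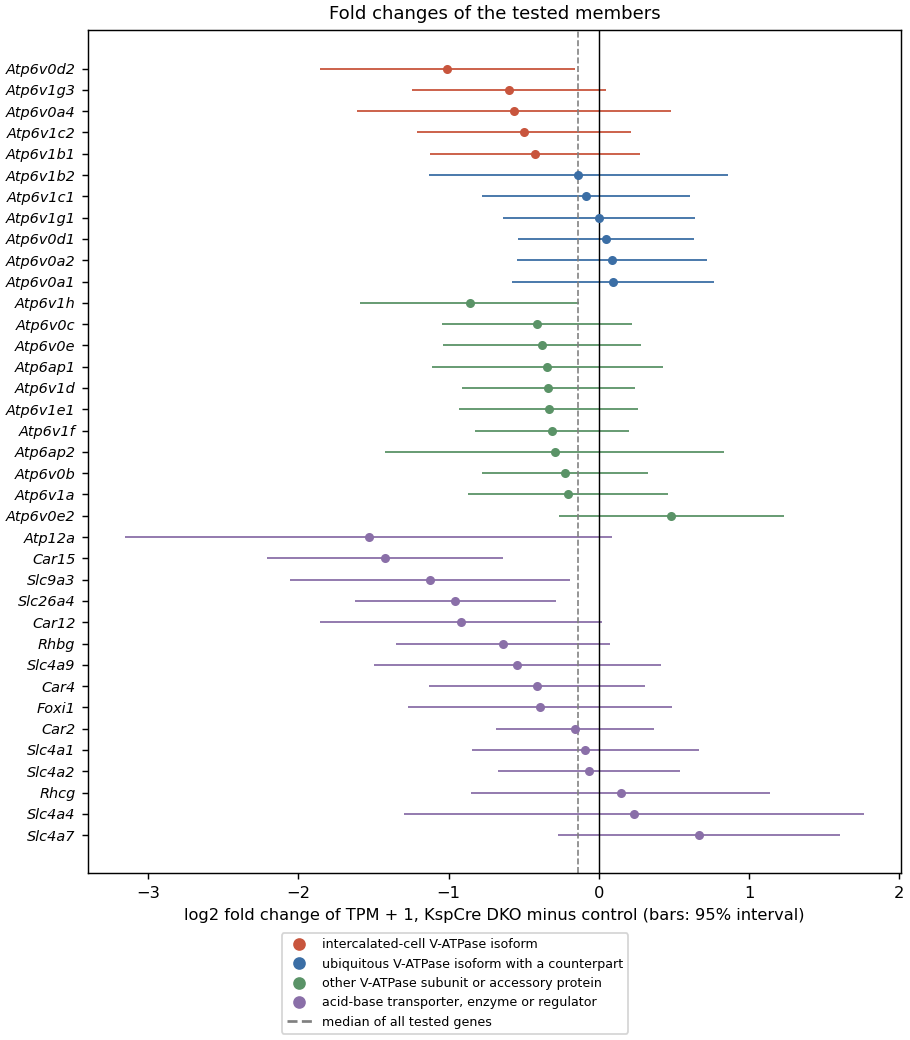
Log2 fold change of TPM + 1 (horizontal axis, KspCre DKO minus control) with its 95% limma interval for the 37 tested genes, coloured by class, with the median of all tested genes (−0.14) as a dashed line. The intercalated-cell isoforms lie between −1.01 and −0.42 and the ubiquitous isoforms around 0, with wide intervals in both classes.

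Foxi1 (chromosome 11, 34204341 to 34208089), the transcription factor that specifies intercalated cells and drives their pump genes, had 29.2, 53.8 and 50.6 TPM in control libraries against 44.6 and 23.7 TPM in KspCre DKO libraries. KspCre DKO replicate 1 lay inside the control range and replicate 2 below it. On the log2 scale the difference was −0.39 with SE 0.38 (adjusted p = 0.753, limma), with a 95% interval of −1.27 to 0.49, and 0.05 without replicate 2. Other intercalated-cell markers, none of them in the set, gave 9 lower and 2 higher of 11, with a median of −0.44, none called, and 3 whose groups did not overlap, all lower (15.6% of all tested genes). Their summed level was 521 to 735 TPM in control libraries and 490.3 and 531 TPM in KspCre DKO, so that the sums overlapped. Markers of principal cells, the neighbours of intercalated cells in the collecting duct, mostly lay on the other side. Of 10, 7 were above 0, with a median of 1.02 and none called. The groups did not overlap for 7 higher and 2 lower markers (10.5% and 15.6% of all tested genes). The summed level of the principal cell markers was 1088 to 1140 TPM in control libraries and 2662 and 2631 TPM in KspCre DKO. Most of it in KspCre DKO came from Aqp2 (1414 and 1218 TPM) and Fxyd4 (541 and 755 TPM). Scnn1b, Scnn1g and Hsd11b2 had fitted values below 0. Thick ascending limb markers were lower in 6 of 6, with a median of −1.20, none called, and 5 without overlap. The part of these shifts in cell markers in the values of the acid-base genes was not tested.

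Both genes of the type B cell had lower means in KspCre DKO, and neither was called. Slc26a4 (pendrin, chromosome 12, 31519814 to 31560055), the apical chloride-bicarbonate exchanger that defines this cell, had 31.6, 45.7 and 32.5 TPM in control libraries against 19.3 and 17.0 TPM in KspCre DKO libraries. Both KspCre DKO libraries were close to each other and below all controls, at 49.6% of the control mean. This is a log2 fold change of −0.955 with SE 0.29 (adjusted p = 0.309, limma), with a 95% interval of −1.63 to −0.28, and it stayed between −1.05 and −0.79 when each library was left out in turn. Slc4a9 (AE4), the basolateral anion exchanger of the same cell, had 48.1, 139.6 and 84.3 TPM in control libraries against 55.6 and 57.5 TPM in KspCre DKO libraries, inside the wide control range (log2 fold change −0.54 ± 0.42 SE, limma adjusted p = 0.687, and −0.17 without control replicate 2).

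Slc4a1 and Slc26a7, exchangers of the type A cell, and Atp12a, a further proton pump, also had lower means in KspCre DKO. None of those tested was called. Slc4a1 (AE1, chromosome 11, 102348820 to 102365281), the basolateral exchanger that returns bicarbonate to the blood, had 19.5, 13.5 and 13.1 TPM in control libraries against 17.4 and 11.4 TPM in KspCre DKO libraries. The groups overlapped, with a log2 fold change of −0.091 with SE 0.33 (adjusted p = 0.944, limma), whose sign turned with median-of-ratios scaling and with rescaling without mitochondrial genes. Slc4a1 is also the band 3 gene of red cells, whose marker sum ranged from 997 to 8345 TPM in control libraries and was 8520 and 9903 TPM in KspCre DKO. Globins make up nearly all of these sums; of the other red cell markers Alas2 had 3.22 to 22.7 TPM, Slc25a37 4.69 to 15.5 TPM and Epb42 0 to 0.83 TPM. The part of red cells in the Slc4a1 values was not tested. Slc26a7, a further basolateral exchanger, was the 1 gene below the filter, at 1.87, 0.93 and 0.56 TPM against 0.86 and 0.76 TPM. Atp12a, the colonic proton-potassium pump, had 0.86, 11.2 and 3.64 TPM in control libraries against 0.81 and 0.47 TPM in KspCre DKO libraries. Its level above 1 TPM came from control replicates 2 and 3, and it passed the filter through these 2 libraries. The log2 fold change was −1.53 ± 0.71 SE (limma adjusted p = 0.51), and −0.85 without control replicate 2.

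The ammonia channels had fitted values on opposite sides of 0. Rhbg, the basolateral channel (chromosome 3, 88242874 to 88254739), had 39.7, 63.5 and 42.1 TPM in control libraries against 34.3 and 26.4 TPM in KspCre DKO libraries, without overlap (log2 fold change −0.64 ± 0.31 SE, limma adjusted p = 0.53). Rhcg, the channel also found at the apical membrane (chromosome 7, 79593363 to 79617657), had 143, 248 and 177 TPM in control libraries against 123 and 338 TPM in KspCre DKO libraries, 1 library below and 1 above all controls. KspCre DKO replicate 2, in which 28 of the 37 genes (75.7%) and 57.7% of all tested genes were below all controls, had the highest Rhcg of the 5 libraries. Without it the log2 fold change went from 0.14 to −0.58.

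Carbonic anhydrases make protons and bicarbonate from carbon dioxide and water. Car15 (ENSMUSG00000090236.3, chromosome 16, 17835276 to 17838186), a membrane-anchored enzyme of the mouse kidney, had the smallest p of the set. The control libraries had 274, 488 and 471 TPM against 115 and 189 TPM in KspCre DKO, without overlap. The KspCre DKO mean was 37.0% of the control mean, with a log2 fold change of −1.42 with SE 0.34 (adjusted p = 0.196, limma), a 95% interval of −2.21 to −0.64, and values from −1.78 to −1.07 when each library was left out in turn. Car2, the abundant cytosolic enzyme of intercalated and other tubule cells, stood at 223, 219 and 239 TPM against 212 and 195 TPM; the groups did not overlap, but the log2 fold change was −0.16 ± 0.23 (SE; limma adjusted p = 0.844) and turned to 0.069 with quantile normalization. Car12, a basolateral membrane enzyme, stood at 69.1, 112 and 70.4 TPM against 66.4 and 27.4 TPM, so that replicate 1 lay just under the controls and replicate 2 well below them (log2 fold change −0.92 ± 0.41 SE, limma adjusted p = 0.499, −0.29 without replicate 2 and −1.54 without replicate 1). Car4, the luminal enzyme of proximal tubule and thick ascending limb, averaged 83.1 ± 17.5 TPM (SD, n = 3) against 63.0 ± 20.3 TPM (SD, n = 2).

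In the proximal tubule most filtered bicarbonate is reclaimed by apical sodium-proton exchange and basolateral sodium-bicarbonate cotransport. Slc9a3 (NHE3, chromosome 13, 74086255 to 74169442), the exchanger, had 40.5, 72.3 and 66.1 TPM in control libraries against 39.0 and 17.2 TPM in KspCre DKO libraries. The groups did not overlap, but KspCre DKO replicate 1 lay just below control replicate 1 (log2 fold change −1.13 ± 0.41 SE, limma adjusted p = 0.39, and −0.56 without replicate 2). Slc4a4 (NBCe1), the cotransporter, had 18.2, 10.5 and 9.44 TPM in control libraries against 36.9 and 5.36 TPM in KspCre DKO libraries, the highest and the lowest value of the 5 libraries. Proximal tubule markers followed the same order within KspCre DKO, with a summed level of 4629 TPM in replicate 1 and 1796 TPM in replicate 2 against 1931 to 2975 TPM in the controls. Slc4a7 (NBCn1), an electroneutral cotransporter, was the 1 gene with both KspCre DKO libraries above all controls, at 0.93, 0.9 and 0.85 TPM against 2.45 and 1.62 TPM (log2 fold change 0.67 ± 0.41 SE, limma adjusted p = 0.614), and it passed the filter through these 2 libraries. The widespread exchanger Slc4a2 (AE2) averaged 34.9 ± 3.52 TPM (SD, n = 3) against 33.3 ± 1.77 TPM (SD, n = 2); its log2 fold change was −0.064 with a 95% interval of −0.67 to 0.54.

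**Figure D4:**
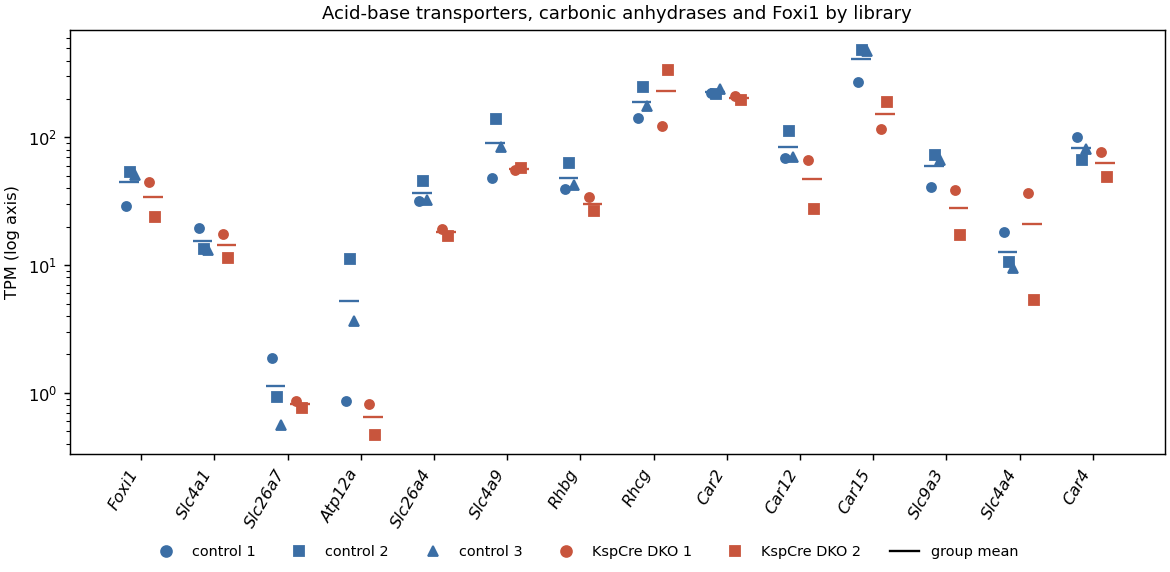
Level in TPM (log axis) of 14 acid-base genes, with a point for each of the 5 libraries and bars for group means. Atp12a, Slc26a4, Rhbg, Car2, Car12, Car15 and Slc9a3 have both KspCre DKO points below the 3 control points, as do 15.6% of all tested genes. Rhcg and Slc4a4 have the 2 KspCre DKO points on either side of the controls.

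Other genes of the pump and of acid-base transport did not pass the test either. Of 16 tested V-ATPase genes outside the set (other isoforms, assembly factors and TLDc and RAVE-type regulators), 7 had a fold change above 0 and 9 below, around a median of −0.049 and none called. Those of smallest p were Oxr1, a TLDc protein, at 21.5, 10.4 and 14.8 TPM against 23.0 and 23.8 TPM, Tmem9 and Rnasek. Of 31 tested acid-base genes outside the set, 12 had a fold change above 0 and 19 below, around a median of −0.16 and none called. Atp4a, the gastric proton-potassium pump, stood at 11.7, 6.31 and 7.72 TPM against 4.61 and 2.09 TPM, Slc4a5 (NBCe2) at 2.63, 1.90 and 1.06 TPM against 5.36 and 4.70 TPM, and Car7 at 4.83, 6.85 and 5.76 TPM against 3.33 and 1.37 TPM (limma adjusted p = 0.37, 0.379 and 0.386). Lysosomal genes, which share the housekeeping pump, gave 9 higher and 22 lower of 31, with a median of −0.073 and none called; Mitf, a transcription factor of lysosomal genes, had 5.07, 6.48 and 6.95 TPM against 2.98 and 1.57 TPM.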

How the data were processed

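Whole-kidney RNA was selected for poly(A) and built into TruSeq libraries (Illumina), per the labels' protocols. Tools named in the submitters' processing notes are RSEM 1.3.1, STAR 2.2.1, Bismark 0.19.1 and Trim Galore 0.5.0, with build mm10; no roles are stated. The deposited values are TPM per gene, 1 file per library. Which annotation and strand setting the authors used is not given in the sources used here. Since TPM hold no counts, depth is unknown, no counting interval can be given, and reads of near-identical copies are divided by estimate.

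Of 54146 identifiers, 54079 (99.9%) were matched to a symbol with the identifier version ignored. Positions and promoter sequences are RefSeq's for GRCm38.p6, the assembly that mm10 represents, matched by symbol.

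The test was moderated by limma (version 3.58.1, R 4.3.3) and run on log2(TPM + 1) for 13963 genes averaging 1 TPM or more, with an intensity trend, two-sided, adjusted by Benjamini-Hochberg over all tested genes and called below 0.05. It was tested on simulated data. Tables were made in Python 3.11.15. Genes from the lists of other pump genes, other acid-base genes and lysosomal genes are named by smallest p. The cell type markers named do not follow this rule. The members and lists were chosen with earlier results of these data known; Tcirg1, Dnmt3a and the promoters shown were chosen after their values or sequences were seen. No batch is given in the labels. Alternatives were pseudocounts, filters, scalings, empirical Bayes settings, array weights, a replicate block and each library left out, with the genes tested kept the same when a library was left out.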

Additional observations from a re-analysis of the deposited data

How the results depend on the processing

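No member was called in 15 of the 16 alternatives. Leaving out each library gave 0 to 2 members called; the 2 are Atp6v0d2 and Atp6v1h, lower without KspCre DKO replicate 1 (limma adjusted p = 0.0467 and 0.0487), where 3.34% of all genes were called lower and the remaining KspCre DKO library is assumed to vary like the controls. Over all genes the main count of 23 became 14 with pseudocount 0.1, 39 with pseudocount 5, 4 with no filter, 42 with quantile normalization, 37 without mitochondrial genes, 9 without trend, 5 with array weights, and 4 to 555 with a library left out. The titles number the controls 1 to 3 and KspCre DKO 1 and 2, and nothing else pairs them. Deviations of same-numbered libraries from their group means correlated at 0.0926 and 0.0281. The deviations of the 2 KspCre DKO libraries mirror each other, so these values cannot decide whether libraries are paired. A replicate block gave 75 calls (47 higher, 28 lower) and no called member.

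The intercalated-cell median stayed below 0 in all 16 alternatives, at −0.72 to −0.40 with a library left out. The median of all genes was also below 0, except without KspCre DKO replicate 2, where it was 0.133. The intercalated-cell median minus that of all genes was −0.43 in the main fit. With a library left out this difference ran from −0.603 without control replicate 1 to −0.231 without control replicate 2. The ubiquitous median was 0.14 with median-of-ratios scaling, 0.17 with quantile normalization and 0.14 without mitochondrial genes, where the median of all genes was −0.042, −0.019 and −0.042, and −0.24 to 0.25 with a library left out. The median of the 11 pump genes without an intercalated-cell counterpart was −0.22, −0.13 and −0.22 under the same scalings, and −0.60 to −0.038 with a library left out. Share differences with a library left out ran from −12.4 to 3.98 points for B, −12.35 to −1.28 for C, −14.0 to −2.72 for G, −22.9 to −0.17 for a and −16.5 to −8.1 for d. Shares within a library do not change when all its values are multiplied by a common factor. They were not recomputed with quantile normalization.

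Of the 37 tested members, 16 changed sign in some setting. With median-of-ratios scaling Atp6v1c1 was 0.026, Slc4a1 0.013 and Slc4a2 0.046; without mitochondrial genes they were 0.027, 0.014 and 0.046. Quantile normalization gave 0.006 for Atp6v1c1, 0.027 for Atp6v1f, 0.071 for Atp6v0b, 0.031 for Slc4a2 and 0.069 for Car2. Array weights gave −0.012 for Atp6v1g1, and the replicate block −0.027 for Atp6v0d1 and 0.005 for Slc4a2. With a library left out the ranges that crossed 0 were −0.92 to 0.64 for Atp6v1b2, −0.32 to 0.15 for Atp6v1c1, −0.34 to 0.34 for Atp6v1g1, −0.16 to 0.35 for Atp6v0a1, −1.37 to 0.24 for Atp6v0a4, −0.069 to 0.16 for Atp6v0d1, −0.85 to 0.17 for Atp6ap1, −1.12 to 0.53 for Atp6ap2, −0.38 to 0.195 for Slc4a1, −0.14 to 0.005 for Slc4a2, −1.05 to 1.52 for Slc4a4, −0.83 to 0.05 for Foxi1 and −0.58 to 0.87 for Rhcg. Causes of these changes were not tested.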
